A study of Mus musculus with 8 samples.

Results

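The heat shock proteins and chaperonins of the mouse kidney were compared between mice fed cinacalcet HCl, an allosteric activator of the calcium-sensing receptor, and mice on standard chow. The set comprised 39 listed genes, taken as the array probes whose RefSeq accession belongs to one of those symbols. Of these, 38 genes were measured among 14209 genes tested, all 38 above background on all 8 arrays. Hspa1b alone had no named probe, and its near-identical neighbour Hspa1a may share its signal.

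Total RNA of whole, snap-frozen kidneys of 12-week-old mice labelled male was hybridised to 1-colour Agilent arrays, 4 labelled control and 4 labelled cinacalcet. Control mice received standard chow. The treated mice received cinacalcet at 1 mg per g body weight over 5 days. No strain is given in the labels, nor whether each array came from a different animal, so p-values cover only the spread between the samples at hand, which may be technical. All levels below are log2 intensities relative to the 75th percentile of the array, and a difference is cinacalcet minus control on that log2 scale. In whole kidney, fewer cells of a type and less RNA per cell cannot be told apart.

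The 8 arrays shared 1 slide and 1 scan time. The 75th percentile of intensity was 203.3 to 256.9, and well over background lay 51.8% to 58.0% of the spots. All 8 proximal tubule markers and all 5 thick ascending limb markers were above background on every array. Arrays control 4, cinacalcet 2 and cinacalcet 3 went against the label male: none of 4 Y-linked genes was above background there and Xist stood at 0.95, 0.45 and 0.73, against -6.99 to -4.22 on the other 5 arrays, which had 3 or 4 of the Y-linked genes. These 3 arrays lie apart on the first principal component, which held 56.1% of the variance. Counts of called genes are therefore also given with a block for Y-linked signal and on the 5 arrays that had it, called Y-positive. Red cell genes passed as lower for 5 of 5, with a summed log2 level of 10.8 to 11.05 in controls and 8.76 to 10.2 with cinacalcet. Among leukocyte genes Adgre1 and Csf1r were lower and S100a8 and S100a9 higher, the brown fat gene Ucp1 was lower and the muscle gene Tnnc2 higher. None of 8 proximal tubule, 5 thick ascending limb, 7 collecting duct and inner medulla, 6 fat and 3 adrenal genes measured passed over 8 arrays. With the block, 1 proximal tubule gene (Slc22a6), 3 of the thick ascending limb (Cldn16, Cldn10 and Kcnj1), 1 muscle gene (Pvalb) and 3 of brown fat passed as lower, and Scnn1b of the collecting duct and Hsd3b1 of the adrenal as higher. All 5 red cell genes, Adgre1 and Csf1r also passed as lower with the block, and S100a8, S100a9 and Tnnc2 as higher. On the Y-positive arrays Slc22a6, Adgre1, Csf1r, 2 brown fat and 3 of 5 red cell genes passed as lower. S100a8, S100a9 and Tnnc2 passed as higher there. The part of these markers in the chaperone values was not tested.

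Chaperones bind unfolded protein and help it fold, refold or reach its place in the cell. HSP70 proteins work through cycles of ATP hydrolysis that J-domain proteins start and exchange factors end, and HSP90 receives clients from HSP70 through cochaperones. The transcription factor Hsf1 raises the inducible members of both families when unfolded protein accumulates. Chaperonins are closed barrels: Hspd1 with its lid Hspe1 in mitochondria, and the ring of Tcp1 and the Cct proteins in the cytosol, which folds actin and tubulin. In the kidney, cells of the inner medulla also hold heat shock proteins against high salt and urea.

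Hsf1 binds repeated units of GAA and its complement TTC, so promoters of the members were read from the RefSeq promoter table of assembly GRCm38.p6. The table held 32 of the 39, without Hsf1, Hspa8, Hspa9, Hsp90aa1, Hsp90ab1, Cryab and Cct4. Only the 250 bases before each start were searched, for exact matches of the letters. A run of alternating units, GAANNTTCNNGAA or TTCNNGAANNTTC on either strand, was present in a promoter of 0.514% of 27025 genes (0.466% of 32851 promoters) and of 3 of the 32 members, Dnajb6, Hspd1 and Hspe1. A run shorter by a unit, GAANNTTC or TTCNNGAA, which every longer run also contains, was present in a promoter of 14.5% of all genes (12.8% of promoters) and of 13 of the 32 members. Hspd1 and Hspe1 start back to back on chromosome 1, their promoter windows share 215 bases, and both hold the same run in opposite orientation. The bases just before the start are shown for the 3 genes with the longer run, and for Hspa1a, Hspa1b and Hsph1, inducible genes whose windows hold the shorter one. They are printed 5′ to 3′ on the strand of the gene, with the matched run in capitals. Hspb1, the other inducible gene with the shorter run, held 2 of them and is not printed.
Hspd1 (chr1:55087933-55088082, minus strand): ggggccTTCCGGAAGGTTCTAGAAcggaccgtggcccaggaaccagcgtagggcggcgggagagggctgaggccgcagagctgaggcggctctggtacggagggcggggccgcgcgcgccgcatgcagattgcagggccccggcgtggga
Hspe1 (chr1:55087998-55088147, plus strand): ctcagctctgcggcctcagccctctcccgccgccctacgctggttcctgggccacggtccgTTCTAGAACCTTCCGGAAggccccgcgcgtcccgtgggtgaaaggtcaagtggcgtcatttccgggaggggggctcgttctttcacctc
Dnajb6 (chr5:29735748-29735897, plus strand): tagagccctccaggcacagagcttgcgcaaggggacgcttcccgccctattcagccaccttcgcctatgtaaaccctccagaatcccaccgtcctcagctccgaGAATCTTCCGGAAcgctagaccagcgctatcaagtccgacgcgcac
Hspa1a (chr17:34972157-34972306, minus strand): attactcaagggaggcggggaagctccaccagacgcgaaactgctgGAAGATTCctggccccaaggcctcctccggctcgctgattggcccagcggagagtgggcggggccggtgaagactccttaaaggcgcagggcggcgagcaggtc
Hspa1b (chr17:34959239-34959388, minus strand): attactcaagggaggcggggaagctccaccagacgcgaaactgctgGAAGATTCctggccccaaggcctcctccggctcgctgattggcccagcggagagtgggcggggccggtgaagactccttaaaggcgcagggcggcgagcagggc
Hsph1 (chr5:149636337-149636486, minus strand): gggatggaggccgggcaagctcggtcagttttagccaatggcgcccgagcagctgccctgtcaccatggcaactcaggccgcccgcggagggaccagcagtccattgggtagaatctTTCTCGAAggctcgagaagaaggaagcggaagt
The windows of Hspa1a and Hspa1b are near copies of each other around the same matched run. The matches describe these letters and no binding was measured here. The 3 members with the longer run had a median difference of -0.44 (range -0.50 to -0.29), and the 28 measured members of the promoter table without it had a median of -0.19 (range -0.76 to 0.09). The pair that shares a promoter, Hspd1 and Hspe1, differed between groups by -0.50 and -0.44. A link between the runs and these differences was not tested.

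The chaperone genes lay lower with cinacalcet as estimates, in all 7 role groups, but 1 gene passed the test. Chordc1, a cochaperone of HSP90, was 1.64-fold lower (limma, adjusted p = 0.0439), and 4.48% of all genes tested passed as lower. No member passed as higher, where 3.39% of all genes did. Of 38 members, 36 had a negative estimate, and the median difference over them was -0.23 against -0.03 over all genes, of which 54.4% were negative. At an unadjusted p under 0.05, 16 members were lower, beside 3939 of 14209 genes in either direction. In 8 members (21.1%) every cinacalcet array lay below every control array, against 9.49% of all genes: Hsf1, Hsf2, Hsph1, Hsp90aa1, Hspa8, Dnaja1, Chordc1 and Hspe1.

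**Figure D1:**
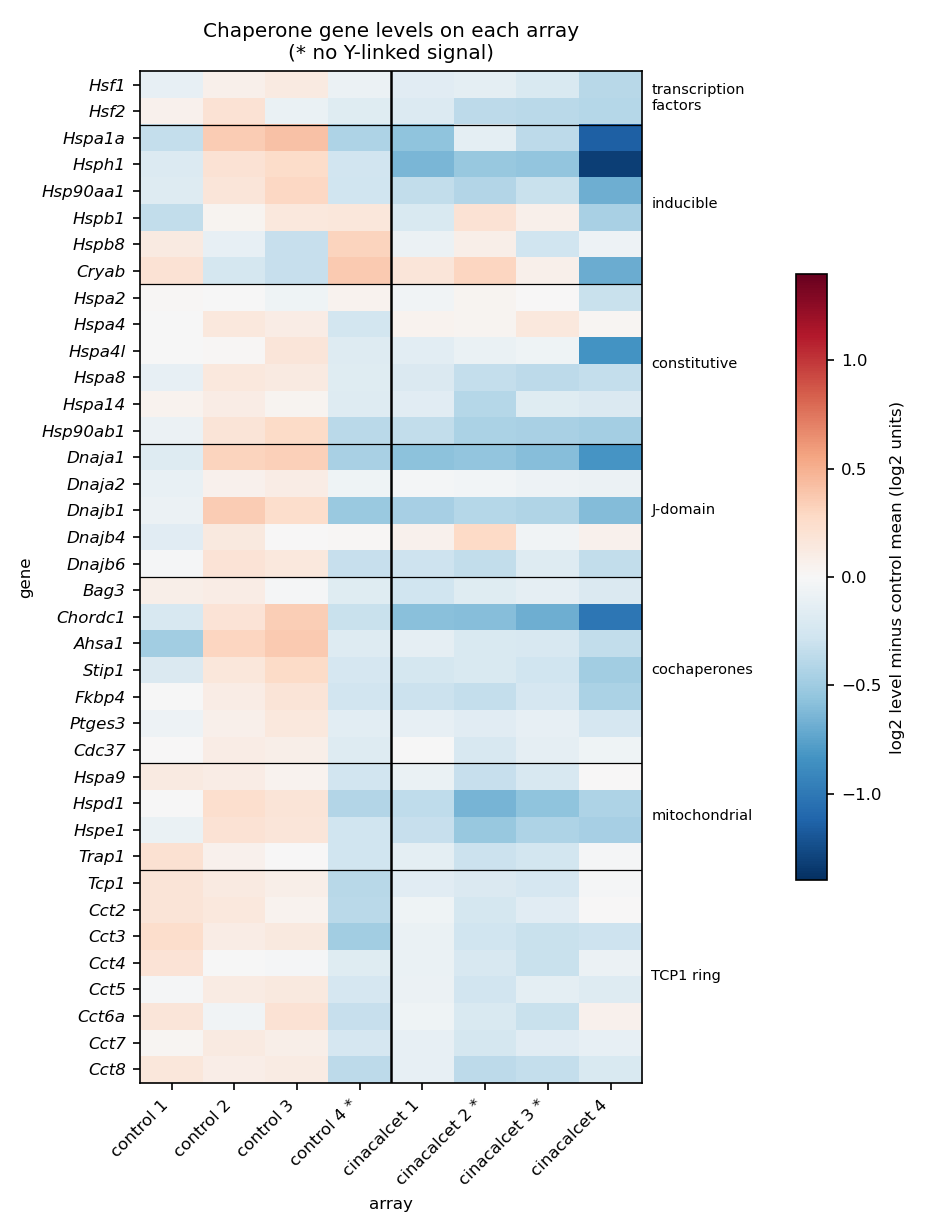
Level of the 38 measured chaperone genes (rows, in role groups) on the 8 arrays (columns), as log2 difference from the control mean of the gene; asterisks mark the 3 arrays without Y-linked signal. The median over the members was 0.12 and 0.13 on controls 2 and 3, -0.25 on control 4 and -0.32 on cinacalcet 4.

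The 4 controls were not alike. The median deviation of the members from their control mean was -0.01 on control 1, 0.12 on control 2, 0.13 on control 3 and -0.25 on control 4. The cinacalcet arrays stood at -0.15, -0.24, -0.23 and -0.32. Control 4 thus lay within the range of the treated arrays, and it was the lowest control for 30 of the 38 members. Control 3 was the highest of the 8 arrays for 15 members and control 2 for 11. Cinacalcet 4 was the lowest of the 8 for 17, with cinacalcet 2 next at 9.

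Counts of called members moved with these arrays. Without control 4, 18 members passed as lower, against 15.6% of all genes. With a block for Y-linked signal, Chordc1, Hspd1, Hspe1 and Hsph1 passed as lower, against 10.0% of all genes, and the median over members was -0.18. On the 5 Y-positive arrays, Fkbp4 and Hspd1 passed, against 5.34% of all genes, with a median of -0.29. On the other 3 arrays, 1 control and 2 cinacalcet, the median difference was -0.01 with 20 of 38 negative. Over all genes it was 0.01 there, with 6779 of 14209 negative. The estimate was more negative on the arrays with Y-linked signal for 36 of 38 members. This count was not made over all genes, and control 4 is the only control without that signal. The test of the difference by Y-linked signal passed for no member (limma interaction, adjusted p 0.321 to 0.971, 11 members at an unadjusted p under 0.05). It passed for none of 14209 genes (1818 at an unadjusted p under 0.05).

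**Figure D2:**
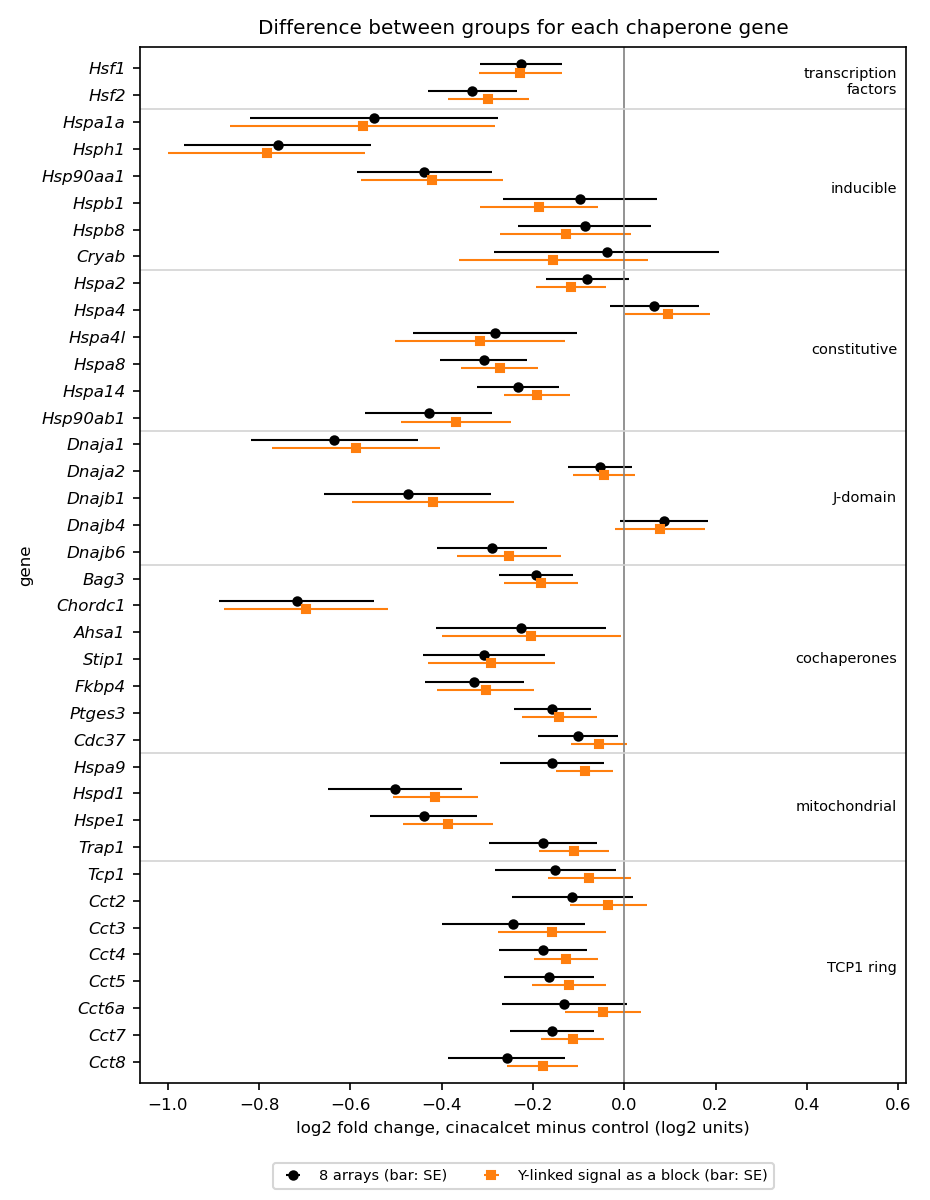
Log2 difference, cinacalcet minus control, of each chaperone gene (rows) with its standard error (bars), over 8 arrays (black circles) and with a block for Y-linked signal (orange squares). Estimates ran from -0.76 for Hsph1 to 0.09 for Dnajb4, and 36 of 38 lay below 0.

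Of the transcription factors, Hsf1, the main switch of the heat shock response, stood at 1.16, 1.34, 1.40 and 1.19 on controls 1 to 4. On cinacalcet arrays 1 to 4 it stood at 1.12, 1.13, 1.06 and 0.88. The groups did not overlap, though control 1 lay just above cinacalcet 2, and the difference of -0.23 (SE 0.09) did not pass (limma, adjusted p = 0.148). Hsf2, a partner of Hsf1, stood at 0.39, 0.53, 0.24 and 0.16 in controls and at 0.14, -0.04, -0.04 and -0.07 with cinacalcet. Its groups were also apart, by little, with a difference of -0.33 (SE 0.10; limma, adjusted p = 0.0754).

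Of the 6 inducible heat shock proteins measured none passed, and the median difference was -0.27. Hsph1, an HSP110 protein that exchanges nucleotide on HSP70, had the most negative estimate of all members. Its level was 4.55, 4.94, 4.99 and 4.47 in controls and 4.10, 4.20, 4.19 and 3.42 with cinacalcet. The groups did not overlap, and cinacalcet 4 lay well below the others. The means were 4.74 ± 0.27 and 3.98 ± 0.37 (SD, n = 4 each), a difference of -0.76 (SE 0.20; limma, adjusted p = 0.0601). It passed with a block for Y-linked signal (-0.78, limma, adjusted p = 0.047).

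Hsp90aa1, the inducible form of cytosolic HSP90, stood at 5.37, 5.72, 5.84 and 5.27 in controls and at 5.20, 5.14, 5.23 and 4.86 with cinacalcet. Controls 1 and 4 were close to the treated arrays, and the difference of -0.44 (SE 0.15) did not pass (limma, adjusted p = 0.105). Hspa1a, the classic stress-induced HSP70, stood at 0.53, 1.22, 1.28 and 0.44 in controls. With cinacalcet it stood at 0.31, 0.74, 0.51 and -0.27. The groups overlapped: controls 2 and 3 were high, controls 1 and 4 lay among the treated arrays, and the difference was -0.55 (SE 0.27; limma, adjusted p = 0.229). On the 5 Y-positive arrays it was -0.99 (limma, adjusted p = 0.098), and on the other 3 arrays it was 0.18.

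The small heat shock proteins, which hold unfolded protein without ATP, stayed near 0. Hspb1 differed by -0.10 (SE 0.17; limma, adjusted p = 0.742), Hspb8, which works with Bag3, by -0.09 (SE 0.15; limma, adjusted p = 0.733) and Cryab by -0.04 (SE 0.25; limma, adjusted p = 0.932). Their sign depended on the scaling, the weights or the arrays used. Cryab had a difference of 0.04 after quantile normalization and -0.16 with a block for Y-linked signal.

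Of the 6 constitutive HSP70 and HSP90 proteins none passed, with a median difference of -0.26. Hspa8, the constitutive HSP70 of the cytosol, stood at 8.68, 8.95, 8.93 and 8.63 in controls. It stood at 8.60, 8.47, 8.44 and 8.47 with cinacalcet, all below the controls, but cinacalcet 1 only just below control 4. The difference was -0.31 (SE 0.09; limma, adjusted p = 0.0833). Hsp90ab1, the constitutive HSP90, stood at 7.23, 7.50, 7.58 and 6.93 in controls and at 6.97, 6.87, 6.86 and 6.84 with cinacalcet. Control 4 lay among the treated arrays, and the difference was -0.43 (SE 0.14; limma, adjusted p = 0.0945).

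Hspa14, an HSP70 protein of the ribosome-bound complex, stood at 3.76, 3.81, 3.75 and 3.54 in controls and at 3.56, 3.31, 3.54 and 3.52 with cinacalcet. Here again control 4 overlapped the treated arrays, with a difference of -0.23 (SE 0.09; limma, adjusted p = 0.142). Hspa4l, an HSP110 protein, differed by -0.28 (SE 0.18; limma, adjusted p = 0.339) and Hspa2, the testis-enriched HSP70, by -0.08 (SE 0.09; limma, adjusted p = 0.593).

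Hspa4, another HSP110 protein, was measured by 3 probes that disagreed. The probe with the highest mean, which stands for the gene, differed by 0.07 (SE 0.10; limma, adjusted p = 0.693). The other probes differed by -0.64 and -0.62, with an adjusted p of 0.0505 and 0.0255 over 29732 probes (limma). On the second of these the controls stood at -0.42, -0.32, -0.51 and -0.63 and the cinacalcet arrays at -0.93, -0.94, -1.25 and -1.23, so the groups did not overlap on it. The direction of Hspa4 is therefore uncertain.

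**Figure D3:**
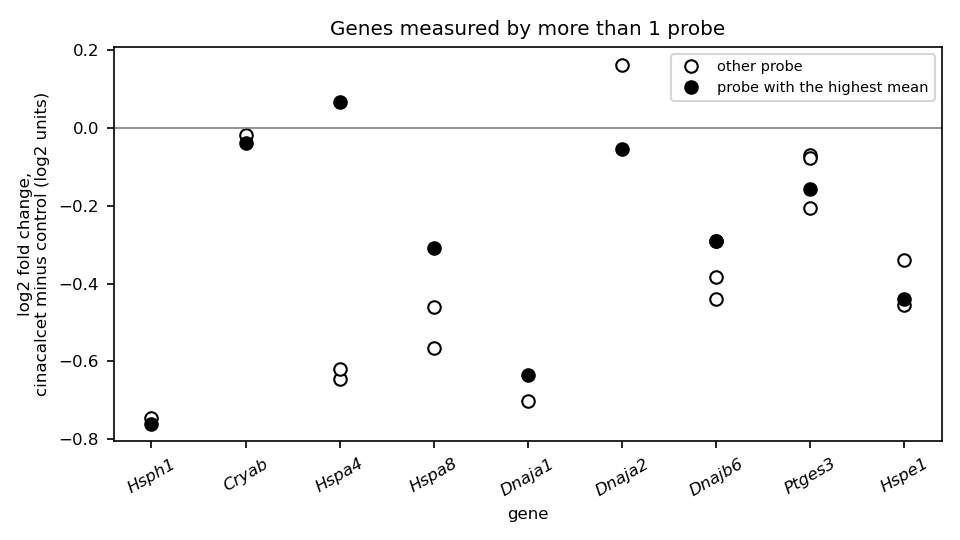
Log2 difference, cinacalcet minus control, of every probe of the 9 chaperone genes with several probes; filled circles are the probes with the highest mean, which stand for their genes. Probes of Hspa4 and Dnaja2 lie on both sides of 0, and those of the other 7 genes lie below it.

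Of the 5 J-domain proteins none passed, with a median difference of -0.29. Dnaja1, a cytosolic partner of Hspa8, stood at 6.26, 6.75, 6.78 and 5.98 in controls and at 5.87, 5.89, 5.85 and 5.62 with cinacalcet. The groups did not overlap, with control 4 nearest to the treated arrays. The means were 6.44 ± 0.39 and 5.81 ± 0.13 (SD, n = 4 each), a difference of -0.64 (SE 0.18; limma, adjusted p = 0.0711). A dimmer probe of the gene gave -0.70.

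Dnajb1, the stress-induced J-domain protein, stood at 4.94, 5.37, 5.27 and 4.50 in controls and at 4.55, 4.62, 4.60 and 4.41 with cinacalcet. Control 4 lay among the treated arrays. The difference of -0.47 (SE 0.18) did not pass (limma, adjusted p = 0.138), and on the 3 arrays without Y-linked signal it was 0.11. Dnajb6, which keeps aggregation-prone protein soluble, stood at 2.22, 2.43, 2.39 and 1.91 in controls and at 1.95, 1.89, 2.06 and 1.89 with cinacalcet. It showed the same overlap through control 4, with a difference of -0.29 (SE 0.12; limma, adjusted p = 0.163), and its 4 probes were all negative.

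The remaining J-domain proteins stayed close to 0. Dnaja2, a close relative of Dnaja1, differed by -0.05 (SE 0.07; limma, adjusted p = 0.652) and its second probe by 0.16. Dnajb4, with 0.09 (SE 0.10; limma, adjusted p = 0.585), had the highest estimate of all members.

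Of the 7 cochaperones 1 passed as lower and all had negative estimates, with a median of -0.23. Chordc1 stood at 2.08, 2.50, 2.66 and 2.00 in controls and at 1.73, 1.72, 1.63 and 1.30 with cinacalcet. All 4 treated arrays lay below the lowest control, which was control 4. The means were 2.31 ± 0.32 and 1.59 ± 0.20 (SD, n = 4 each), a difference of -0.72 (SE 0.17; limma, adjusted p = 0.0439). It was -0.70 with a block for Y-linked signal (limma, adjusted p = 0.0382), -0.90 on the 5 arrays with that signal (limma, adjusted p = 0.0678) and -0.33 on the other 3. Of the fits that left out 1 array, Chordc1 passed only without control 4 (-0.82, limma, adjusted p = 0.0185). Over all 19 alternatives its adjusted p ranged from 0.00571 to 0.121, and it passed in 9.

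Fkbp4, an immunophilin of steroid receptor complexes with HSP90, stood at 1.53, 1.64, 1.72 and 1.27 in controls and at 1.24, 1.21, 1.31 and 1.09 with cinacalcet. Cinacalcet 3 lay just above control 4, and the difference of -0.33 (SE 0.11) did not pass over 8 arrays (limma, adjusted p = 0.0972). It passed on the 5 Y-positive arrays (-0.47, limma, adjusted p = 0.0488). Bag3, a stress-induced exchange factor of HSP70, stood at 3.05, 3.08, 2.95 and 2.80 in controls and at 2.69, 2.80, 2.85 and 2.77 with cinacalcet. The groups overlapped by a narrow margin, with a difference of -0.19 (SE 0.08; limma, adjusted p = 0.171).

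Stip1, which links HSP70 to HSP90, differed by -0.31 (SE 0.13; limma, adjusted p = 0.179). Ahsa1, which speeds the ATPase of HSP90, differed by -0.23 (SE 0.19; limma, adjusted p = 0.459), with control 1 its lowest control. Ptges3, the p23 cochaperone, differed by -0.16 (SE 0.08; limma, adjusted p = 0.258), and Cdc37, which brings kinases to HSP90, by -0.10 (SE 0.09; limma, adjusted p = 0.48).

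The 4 mitochondrial chaperones had a median difference of -0.31 and none passed over 8 arrays. Hspe1, the lid, stood at 6.05, 6.34, 6.30 and 5.86 in controls and at 5.81, 5.60, 5.70 and 5.67 with cinacalcet. The groups did not overlap, but cinacalcet 1 came close to control 4. The means were 6.14 ± 0.23 and 5.70 ± 0.08 (SD, n = 4 each), a difference of -0.44 (SE 0.12; limma, adjusted p = 0.0592), and -0.39 with a block for Y-linked signal (limma, adjusted p = 0.0366).

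Hspd1, the barrel, stood at 6.36, 6.59, 6.54 and 5.95 in controls and at 6.00, 5.71, 5.80 and 5.93 with cinacalcet. Controls 1 to 3 were above every treated array and control 4 lay among them. The difference was -0.50 (SE 0.15; limma, adjusted p = 0.0736). It passed with a block for Y-linked signal (-0.41, limma, adjusted p = 0.0255) and on the 5 arrays with that signal (-0.53, limma, adjusted p = 0.0431). Hspd1 and Hspe1 thus showed like differences over the 8 arrays. Their promoter windows, printed above, share the run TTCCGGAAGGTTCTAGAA. A link between that run and the differences was not tested.

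The other mitochondrial members moved less. Trap1, the HSP90 of mitochondria, stood at 3.99, 3.84, 3.79 and 3.50 in controls and at 3.64, 3.48, 3.52 and 3.76 with cinacalcet, so the groups overlapped. Its difference was -0.18 (SE 0.12; limma, adjusted p = 0.358). Hspa9, the HSP70 that draws proteins into the matrix, differed by -0.16 (SE 0.11; limma, adjusted p = 0.397).

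**Figure D4:**
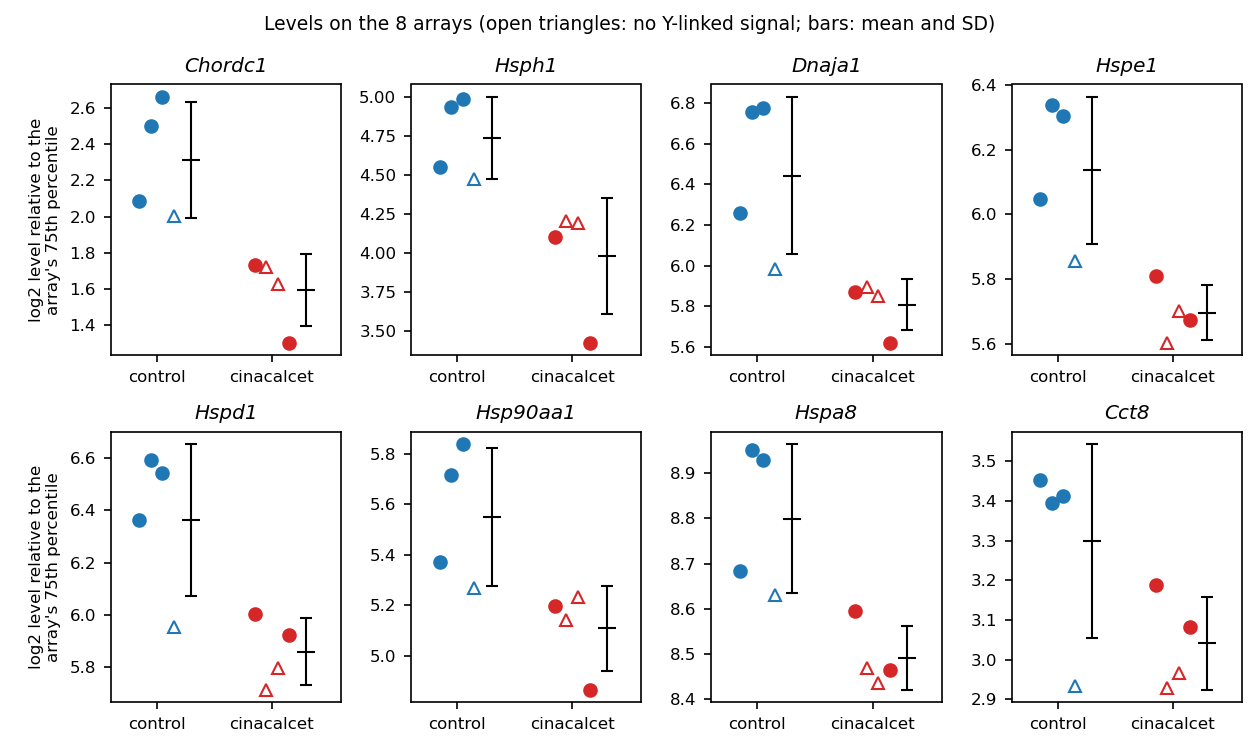
Log2 level of 8 chaperone genes on each array in control (blue) and cinacalcet (red) kidneys; open triangles are arrays without Y-linked signal, and bars give the mean and SD of 4 arrays. Chordc1, Hsph1, Dnaja1, Hspe1, Hsp90aa1 and Hspa8 show no overlap of the groups, while for Hspd1 and Cct8 the open control triangle lies among the treated arrays.

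The 8 measured proteins of the TCP1 ring had a median difference of -0.16, the nearest to 0 of the role groups, with none passed and all 8 estimates negative, from -0.26 to -0.11. None of the 8 had groups that did not overlap, where 9.49% of all genes lay lower without overlap. Cct8 stood at 3.45, 3.40, 3.41 and 2.93 in controls and at 3.19, 2.93, 2.97 and 3.08 with cinacalcet. Controls 1 to 3 lay above all treated arrays and control 4 at their lower end, and the difference was -0.26 (SE 0.13; limma, adjusted p = 0.233). Cct4 stood at 3.74, 3.54, 3.54 and 3.38 in controls and at 3.46, 3.32, 3.24 and 3.47 with cinacalcet, a difference of -0.18 (SE 0.10; limma, adjusted p = 0.269).

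Cct7 stood at 4.91, 5.00, 4.97 and 4.65 in controls and at 4.76, 4.64, 4.72 and 4.77 with cinacalcet. Its controls 1 to 3 were likewise above every treated array, with a difference of -0.16 (SE 0.09; limma, adjusted p = 0.297). Cct3 differed by -0.24, Cct5 by -0.17, Tcp1 by -0.15, Cct6a by -0.13 and Cct2 by -0.11. Over the ring, control 4 was lower than any treated array, with a median deviation of -0.34 from the control mean against -0.09, -0.24, -0.27 and -0.10 on the cinacalcet arrays. On the 3 arrays without Y-linked signal the median difference of the ring was 0.05. There 1 of 8 was negative, beside 6779 of 14209 over all genes. The difference between the ring and the other role groups was not tested.

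Genes that work with these chaperones but are not among them went both ways. For the lists that follow, 4.48% of all genes passed as lower and 3.39% as higher over 8 arrays. As higher, 6.71% passed with the block and 2.47% on the Y-positive arrays, beside the shares for lower given above. Genes named in these lists for a call with the block or on the Y-positive arrays alone were chosen after their values were seen. Of 29 other cochaperones of HSP70 and HSP90 measured, 1 passed as lower and 2 as higher, with a median of -0.03. Fkbp5, an immunophilin that binds HSP90 in steroid receptor complexes as Fkbp4 does, stood at 3.30, 3.90, 3.96 and 2.58 in controls and at 4.82, 4.51, 4.50 and 5.27 with cinacalcet. All treated arrays were above all controls, a 2.53-fold rise (log2 difference 1.34, SE 0.32; limma, adjusted p = 0.0447). Cdc37l1, a relative of Cdc37, rose 1.65-fold (limma, adjusted p = 0.0355). Hspa12b, a distant HSP70 relative of endothelial cells, fell by 0.46 on the log2 scale (limma, adjusted p = 0.0239). With the block the same 3 genes passed. On the Y-positive arrays Fkbp5 and Cdc37l1 passed, Hspa12b did not (-0.33, limma, adjusted p = 0.0777), and the J-domain gene Dnajb2 passed as lower (-0.41, limma, adjusted p = 0.0409).

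Of 18 prefoldin and chaperonin cofactors, 3 passed as lower and none as higher, with a median of -0.14. Mkks, a chaperonin-like protein of the complex that assembles the BBSome of cilia, stood at 2.69, 2.94, 3.04 and 2.77 in controls and at 2.13, 2.23, 2.09 and 2.06 with cinacalcet. The groups lay far apart, and the gene fell 1.66-fold (limma, adjusted p = 0.00926). Bbs12, of the same complex, was 1.30-fold lower (limma, adjusted p = 0.0283), and Txndc9, a regulator of the TCP1 ring, 1.29-fold lower (limma, adjusted p = 0.0278). With the block 6 passed as lower, with Pfdn1, Pdcl and Bbs10 added to these. On the Y-positive arrays 3 passed, Mkks, Txndc9 and Pfdn1, while Bbs12 did not (-0.29, limma, adjusted p = 0.0805).

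Of 17 chaperones of the endoplasmic reticulum, 3 passed as lower and none as higher, and the median difference was -0.41. Serpinh1, the collagen chaperone HSP47, stood at 2.44, 3.02, 3.02 and 2.83 in controls and at 1.98, 2.09, 2.09 and 1.49 with cinacalcet, and fell 1.88-fold (limma, adjusted p = 0.0258). Hsp90b1, the HSP90 of this compartment, was 1.36-fold lower (limma, adjusted p = 0.0437). Dnajc3, a J-domain protein of the same compartment, was 1.24-fold lower (limma, adjusted p = 0.0489). With the block 4 passed as lower, Dnajb11 being added. On the Y-positive arrays none of the 17 passed: Serpinh1 had an adjusted p of 0.0594, Hsp90b1 of 0.113 and Dnajc3 of 0.112 (limma), with a list median of -0.47. In this list control 4 was close to the control mean, with a median deviation of -0.05. On the 3 arrays without Y-linked signal 15 of 17 differences were negative, beside 6779 of 14209 over all genes.

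Of 11 genes of mitochondrial import and folding none passed, with a median of -0.10. Timm44, which holds Hspa9 at the import channel, had the lowest p (-0.32, limma, adjusted p = 0.105). None passed with the block, and Timm44 passed as lower on the Y-positive arrays (-0.36, limma, adjusted p = 0.0441). Of 9 other small heat shock proteins and stress transcription genes, Hsf5 passed as higher (0.87, limma, adjusted p = 0.0469), a dim gene above background on 6 of 8 arrays. It passed with the block, but not on the Y-positive arrays (0.43, limma, adjusted p = 0.0754), and its difference on the other 3 arrays was 1.62. Cryaa, a small heat shock protein of the lens, was dim too, above background on 5 of 8 arrays. It did not pass over 8 arrays (-1.76, limma, adjusted p = 0.201), and its groups overlapped. Cryaa passed as lower with the block (-1.18, limma, adjusted p = 0.0409) and on the Y-positive arrays (-1.75, limma, adjusted p = 0.0248). Of 6 genes of the hypertonic response none passed over 8 arrays, and all 6 estimates were positive with a median of 0.25. Slc6a12, the betaine transporter, was the nearest (1.01, limma, adjusted p = 0.0786), and it passed as higher on the Y-positive arrays (0.96, limma, adjusted p = 0.0459). With the block Slc6a6, the taurine transporter, passed as higher (0.37, limma, adjusted p = 0.0138). On the Y-positive arrays 5 of the 6 estimates were positive, and Akr1b3, aldose reductase, stood at -0.44.

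Both RNA-binding proteins known to rise in the cold passed as higher. Cirbp stood at 3.16, 2.67, 2.37 and 2.59 in controls and at 4.05, 4.21, 4.62 and 4.41 with cinacalcet. Every treated array lay above every control, a 3.09-fold rise (log2 difference 1.63, SE 0.19; limma, adjusted p = 0.00818). Rbm3 stood at 3.58, 3.63, 3.45 and 3.73 in controls and at 4.25, 4.51, 4.50 and 4.82 with cinacalcet, a 1.90-fold rise (log2 difference 0.92, SE 0.12; limma, adjusted p = 0.0107). Both also passed with a block for Y-linked signal and on the 5 arrays that had it.

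Of the 12 related genes outside the set that passed over 8 arrays, Mkks, Cirbp and Rbm3 passed in all 8 fits that left out 1 array, with an adjusted p of at most 0.0382 (limma). Serpinh1 and Hspa12b each lost the call without control 2, control 3, cinacalcet 2 or cinacalcet 3. Fkbp5, Cdc37l1 and Dnajc3 passed in 1 such fit, the one without control 4. Hsp90b1, Bbs12, Txndc9 and Hsf5 passed in 2, those without control 4 or cinacalcet 1. The highest adjusted p over these fits was 0.141, for Dnajc3.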

How the data were processed

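RNA of 4 control and 4 cinacalcet kidneys was measured, with groups from the sample titles. The deposited files hold spot intensity on a linear scale, background-corrected by Agilent Feature Extraction 11.0.1.1 per the file headers (9.5 per the submitters' processing notes). Control and outlier spots were dropped, spots of a probe averaged, and each array's 75th percentile subtracted from log2 intensity. Probes were named by RefSeq accession (27223 named, 28427 not). A probe had to be well above background on 4 or more of the 8 arrays. The probe with the highest mean stood for its gene. Groups were compared with limma 3.58.1 (R 4.3.3; lmFit, eBayes, Benjamini-Hochberg over 14209 genes, threshold 0.05). On simulated data with a known log2 change, 28% of genes changed by 0.5 and 78% of those changed by 1 were recovered, over 14209 genes. Array number limits the precision.

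The members, role groups and related lists were chosen with earlier results of these data known. All members are named. Array values are given for those past the threshold, Hspa1a, and up to 3 per role group with the lowest p. Values of a dimmer Hspa4 probe are also printed, outside this rule and with its result known. Of a related list, up to 4 genes past the threshold are named, or 1 with the lowest p. Alternatives covered normalization, background, filters, probes, weights, blocks and leaving out each array, and the test of the difference by Y-linked signal and the fits of related genes without 1 array were added after seeing the data.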

Additional observations from a re-analysis of the deposited data

Results flagged for a closer look

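In 8 of 76 groups of 4 arrays, 1 array lay far from the other 3. For a single group of like arrays chance gives about 1 in 20. The groups here are genes on the same 8 arrays, with and without Y-linked signal. They are not independent, so the count cannot be set against that rate. On cinacalcet 4, Hsph1 stood at 3.42, Hspa4l at 0.73 and Dnaja1 at 5.62, each below the other treated arrays. On control 4, Tcp1 stood at 2.92 and Cct8 at 2.93, each below the other controls. On cinacalcet 1, Hsf2 stood at 0.14 and Cct3 at 2.64, each above the other treated arrays. On cinacalcet 2, Hspa14 stood at 3.31, below the others.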

How the results depend on the processing

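The median difference over the 38 members stayed negative in every alternative, from -0.29 to -0.16 (-0.28 to -0.19 with 1 array left out), but counts of calls did not hold. Members past the threshold, 1 over 8 arrays, came to 3 with quantile normalization, 0 with no filter on dim probes, 2 with the mean of the probes, 3 with trend and robust eBayes, 25 with array weights, 5 with slide row as a block, 4 with a block for Y-linked signal, 2 on the 5 Y-positive arrays and 0 to 18 with 1 array left out. Of all 14209 genes, 1117 passed over 8 arrays. The count was 1420 with quantile normalization, 1081 with the mean of the probes and 1388 with trend and robust eBayes. It was 5426 with array weights, 914 with slide row as a block and 2378 with a block for Y-linked signal. On the 5 Y-positive arrays it was 1110, and with 1 array left out 218 to 3348. With no filter 373 of 20657 genes passed. The deviations of same-numbered arrays had correlations of 0.34, -0.54, -0.36 and -0.56. Numbers 2, 3 and 4 each join an array with Y-linked signal to an array without it. Control 4 had correlations of 0.70 and 0.56 with cinacalcet 2 and 3, which also lack that signal. These values therefore cannot decide whether the numbers mark pairs. With the replicate block limma called 0 members (14 at an unadjusted p under 0.05) and 0 genes (2859). Some members near 0 changed sign: Hspb8 to 0.048 with array weights and 0.029 on the 5 Y-positive arrays, Cryab to 0.036 with quantile normalization and 0.23 with array weights, Dnaja2 to 0.054 with the mean of the probes, and Hspa4 to -0.40 with the mean of the probes (limma, adjusted p = 0.0472), -0.011 with array weights and -0.044 on the 5 Y-positive arrays. With 1 array left out the range was -0.21 to 0.020 for Hspb1, -0.20 to 0.018 for Hspb8, -0.15 to 0.18 for Cryab and -0.018 to 0.12 for Hspa4. The cause was not tested.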
